A study of Arabidopsis thaliana with 4 samples.

Results

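The phi class glutathione S-transferases of Arabidopsis thaliana were followed in seedlings exposed to the vapour of reactive carbonyl compounds. The group held 9 genes, taken by locus as members of the class, with earlier results of these data known: GSTF2 (AT4G02520), GSTF3 (AT2G02930), GSTF6 (AT1G02930), GSTF7 (AT1G02920), GSTF8 (AT2G47730), GSTF9 (AT2G30860), GSTF10 (AT2G30870), GSTF11 (AT3G03190) and GSTF12 (AT5G17220). All 9 had at least 1 matched probe, among 25418 loci with one. The 9 genes had 17 probes, and 8 of the genes were well above background on all 4 arrays by their brightest probe, as were 18412 loci in all. GSTF12 was the exception. The study had 4 one-colour Agilent arrays, 1 for each group of wild-type Columbia-0 seedlings: acetonitrile alone, which is the solvent and the control, and (E)-2-pentenal, 3-hepten-2-one or crotonaldehyde given in acetonitrile, each at a nominal 10 µM for 30 min in a closed box. Each RNA sample came from a pool of at least 6 plants. With 1 array per group there was no replicate check, so no p-value or standard error can be given, and a gene was called higher or lower when its levels on 2 arrays were 2-fold or more apart.

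Glutathione S-transferases join the sulphur atom of glutathione to reactive, electron-poor compounds, which are then moved into the vacuole and broken down. The phi class is found in plants, and several of its members are known as rapidly induced stress genes, while others serve the synthesis or transport of sulphur compounds and pigments. The volatiles used here carry a carbon-carbon double bond next to a carbonyl group, a structure that reacts with thiols such as glutathione. (E)-2-pentenal and crotonaldehyde are aldehydes with 5 and 4 carbons, and 3-hepten-2-one is a ketone.

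Levels are given as the processed signal divided by the array's 75th percentile of signal, and differences as log2 of the ratio of 2 such levels. That percentile lay between 1048 and 1667 signal units, lowest on the crotonaldehyde array, and no spot was saturated. The scanner software attaches an error to each spot. For the 8 genes compared it came to 0.20 to 0.21 on the log2 scale for each difference from the control, which covers the scan and not the plants. The crotonaldehyde array lay on a slide of its own, scanned apart from the slide of the other 3, so slide and treatment cannot be told apart in any comparison with it. All 5 green leaf markers were well above background on every array, with summed levels of 1507 to 1708. Of 5 root markers 3 were well above background on the other arrays and 2 on the crotonaldehyde array. The summed root marker level was 18.0 in the control, 8.54 after (E)-2-pentenal, 31.6 after 3-hepten-2-one and 0.111 after crotonaldehyde. On the first 3 of these arrays nearly all of it came from PYK10, a root glucosidase, while EXPA7 and XTH14 were not well above background on any array. Of 4 flower markers 2 to 4 were well above background, with summed levels of 0.0608 to 0.141. AP1 and AP3 were dim on the 3-hepten-2-one and crotonaldehyde arrays: AP1 was at least 7.24-fold and at least 5.99-fold lower there than in the control, and AP3 at least 2.75-fold and at least 2.27-fold. AG, dim in the control, was at least 4.72-fold and at least 2.30-fold higher on the same arrays. The labels give the tissue as seedlings, and whether the harvested parts differed between arrays was not tested. The part of these markers in the values of GSTF2, GSTF3, GSTF11 and GSTF12 was likewise not tested.

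The first question was which phi class genes differed from the solvent control after each volatile. GSTF6, GSTF7 and GSTF8 were at least 2-fold higher after all 3 volatiles, GSTF2 and GSTF3 were lower after 3-hepten-2-one alone, GSTF11 was lower after crotonaldehyde alone, and GSTF9 and GSTF10 stayed under 2-fold throughout. After (E)-2-pentenal 3 of the 8 genes compared were higher and 0 lower, where 4.5% of all genes compared were higher and 1.87% lower. After 3-hepten-2-one 3 were higher and 2 lower, where the shares over all genes were 6.12% and 4.57%. After crotonaldehyde 3 were higher and 1 lower, against 8.89% and 15.2% of all genes, so the lower count was near the share over all genes. The median log2 difference of the 8 was 0.53 for (E)-2-pentenal, 0.36 for the ketone and 0.29 for crotonaldehyde, beside -0.06, -0.07 and 0.0050 over all genes. These 3 comparisons share the control array. How many of all genes were higher after all 3 was not counted, but their share cannot exceed the 4.5% for (E)-2-pentenal. The balance of all calls moved with the scaling: after 3-hepten-2-one 1126 genes were higher and 842 lower, but 954 and 1122 with the authors' scaled values, and after crotonaldehyde 1637 and 2801, but 2868 and 2014 with each array scaled to its median.

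**Figure D1:**
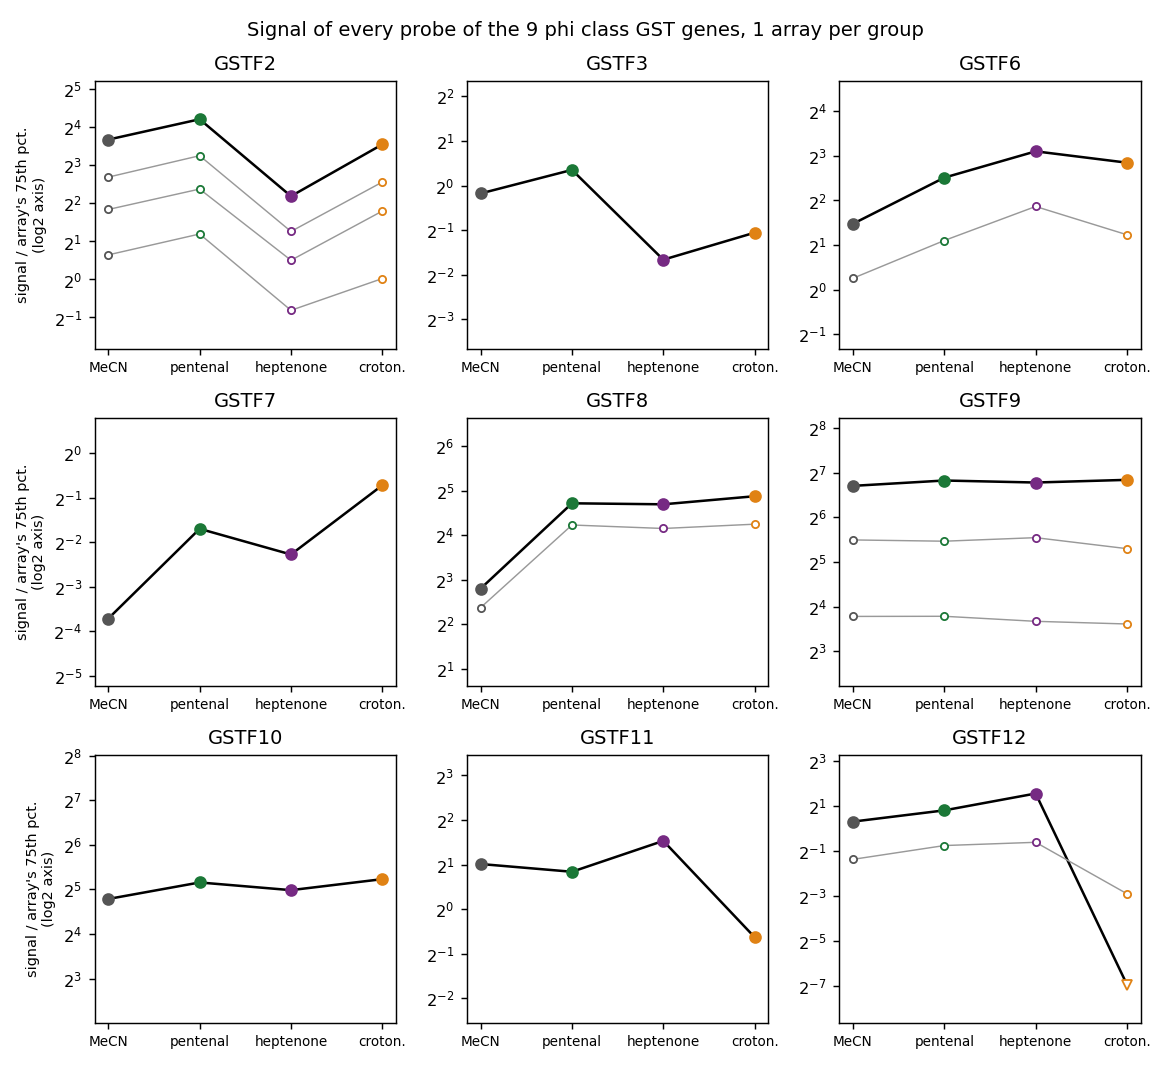
Signal of every probe of the 9 genes on the 4 arrays, divided by the array's 75th percentile, on log2 axes that differ in position and, for GSTF2 and GSTF12, in span. Filled points joined by black lines are the brightest probe, open points joined by grey lines are the other probes, and the open triangle marks a spot not well above background. GSTF6, GSTF7 and GSTF8 are lowest on the acetonitrile array, GSTF2 and GSTF3 on the 3-hepten-2-one array, and GSTF11 and GSTF12 on the crotonaldehyde array.

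GSTF8, a stress-inducible enzyme known for responses to hydrogen peroxide, auxin and salicylic acid, stood at nearly the same level after each volatile. Its level was 6.98 in the control, 26.3 after (E)-2-pentenal, 25.9 after 3-hepten-2-one and 29.3 after crotonaldehyde. The control was thus the low array and the 3 treated arrays lay close together. The differences corresponded to 3.77-fold, 3.71-fold and 4.20-fold higher levels, and 333, 425 and 381 of the 18412 genes had greater ones. The second probe of GSTF8 gave log2 differences of 1.85, 1.77 and 1.87 beside 1.91, 1.89 and 2.07 for the brightest. In RNA from pooled seedlings, more cells that express a gene and more transcript in each cell cannot be told apart.

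GSTF7 and GSTF6 are neighbours on chromosome 1, with no other coding gene between them in the reference table, and GSTF5 and GSTF4 follow directly. GSTF6 is known as an early dehydration gene with a reported part in camalexin synthesis, and GSTF7 is its close relative, known from pathogen and salicylic acid responses. The level of GSTF7 was 0.0763 in the control, 0.308 after (E)-2-pentenal, 0.206 after 3-hepten-2-one and 0.606 after crotonaldehyde. It was the widest spread among the 8 genes compared, with every treated array above the control and crotonaldehyde highest, at 4.04-fold, 2.71-fold and 7.94-fold. GSTF7 had a single probe, so no other probe could check this. After crotonaldehyde 164 genes had a greater difference. The GSTF7 spot was dim in the control, at 127 signal units where the lowest spot well above background had 15.8, and under the normexp background correction these folds were 2.83, 2.03 and 5.32.

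The level of GSTF6 was 2.78 in the control, 5.70 after (E)-2-pentenal, 8.59 after 3-hepten-2-one and 7.20 after crotonaldehyde. All treated arrays were again above the control, but in another order than for GSTF7, with 3-hepten-2-one highest. The folds were 2.05, 3.09 and 2.59. The call after (E)-2-pentenal was marginal, since the log2 difference of 1.04 had a second probe at 0.85, and the value fell to 0.98 with quantile normalization, 0.97 with the authors' scaled values and 0.94 as the mean over both probes. After 3-hepten-2-one the probes gave 1.63 and 1.61, and after crotonaldehyde 1.37 and 0.98. GSTF6 and GSTF7 are close in sequence, so a probe of one can bind transcripts of the other.

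The next genes of that row were not higher with GSTF6 and GSTF7. GSTF4, outside the 9 genes, had levels of 0.476, 0.416, 0.320 and 0.226 in the order control, (E)-2-pentenal, ketone, crotonaldehyde, and was 2.11-fold lower on the crotonaldehyde array. GSTF5 was dim, with signals of 18.1 to 67.9 units, and its log2 differences of -0.81, 0.99 and -0.37 did not reach the rule.

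**Figure D2:**
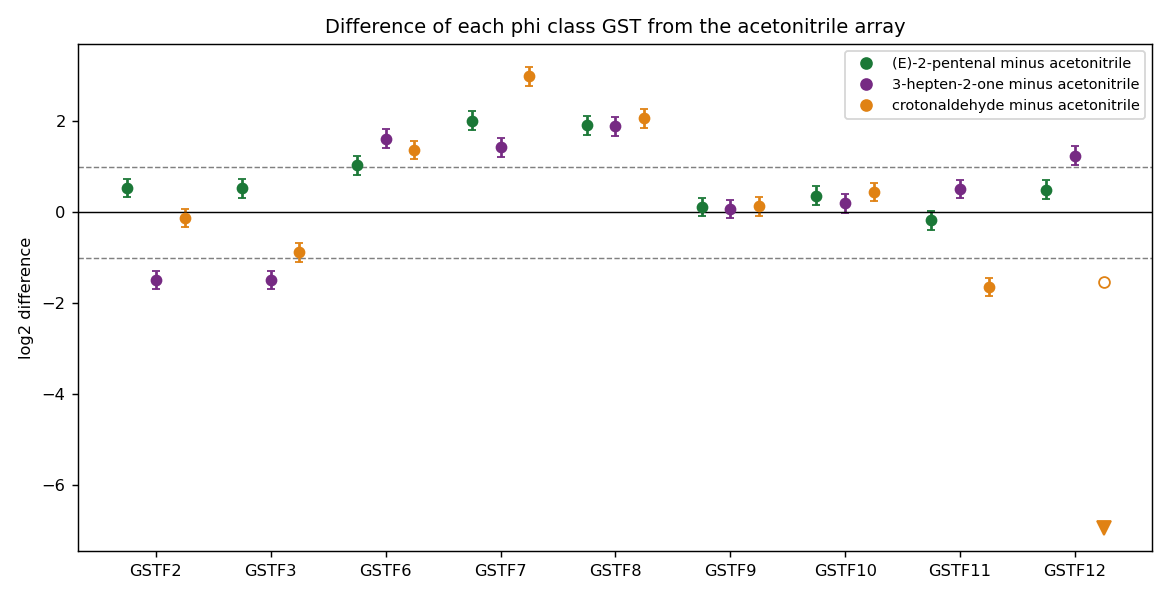
Log2 difference of each of the 9 genes from the acetonitrile array, with 1 point for each volatile by the brightest probe. Bars are the scanner software's error, dashed lines mark 2-fold, the triangle is the bound for GSTF12 after crotonaldehyde and the open circle its other probe. GSTF6, GSTF7 and GSTF8 lie above the upper line for all 3 volatiles, and GSTF2 and GSTF3 lie below the lower line for 3-hepten-2-one.

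GSTF2 and GSTF3, a closely related pair, parted by volatile. GSTF2 is associated with the plasma membrane, is known to bind indole compounds such as camalexin and responds to ethylene and auxin. Its level was 12.8 in the control, 18.6 after (E)-2-pentenal, 4.57 after 3-hepten-2-one and 11.7 after crotonaldehyde. The 3-hepten-2-one array was the low one, 2.81-fold under the control, while (E)-2-pentenal lay 1.45-fold above it. All 4 probes of GSTF2 gave this order, with log2 differences of 0.54 to 0.56 after (E)-2-pentenal and -1.49 to -1.34 after 3-hepten-2-one. After crotonaldehyde the probes ranged from -0.62 to -0.04, and that of the brightest changed sign with the scaling, to 0.20 with each array scaled to its median.

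The level of GSTF3 was 0.885 in the control, 1.28 after (E)-2-pentenal, 0.316 after 3-hepten-2-one and 0.481 after crotonaldehyde. GSTF3 followed GSTF2 on the first 3 arrays, at 1.44-fold higher after (E)-2-pentenal and 2.80-fold lower after 3-hepten-2-one, and was lower than GSTF2 relative to the control after crotonaldehyde, by 0.88 on the log2 scale against 0.13. It passed 2-fold there only with the authors' scaled values, at -1.03. After 3-hepten-2-one 325 genes had a lower difference than GSTF2 and 326 lower than GSTF3. GSTF3 had a single probe, and probes of such near relatives can share targets.

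GSTF9 and GSTF10, neighbours on chromosome 2, had the steadiest signals of the 8 genes compared. GSTF9 has both transferase and peroxidase activity, and GSTF10 is also known as an early dehydration gene. The level of GSTF9 was 104 in the control, 113 after (E)-2-pentenal, 110 after 3-hepten-2-one and 115 after crotonaldehyde. No array stood apart, and the 3 log2 differences of 0.07 to 0.13 were within the scanner error. Its other probes gave -0.03 to 0.12 after (E)-2-pentenal, the brightest included, and -0.20 to 0.13 after crotonaldehyde. GSTF10 had levels of 27.6 in the control, 35.7 after (E)-2-pentenal, 31.6 after the ketone and 37.6 after crotonaldehyde. The treated arrays were all above the control, by 1.29-fold, 1.15-fold and 1.36-fold, the first and last beyond the scanner error and none past 2-fold. GSTF10 had a single probe.

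**Figure D3:**
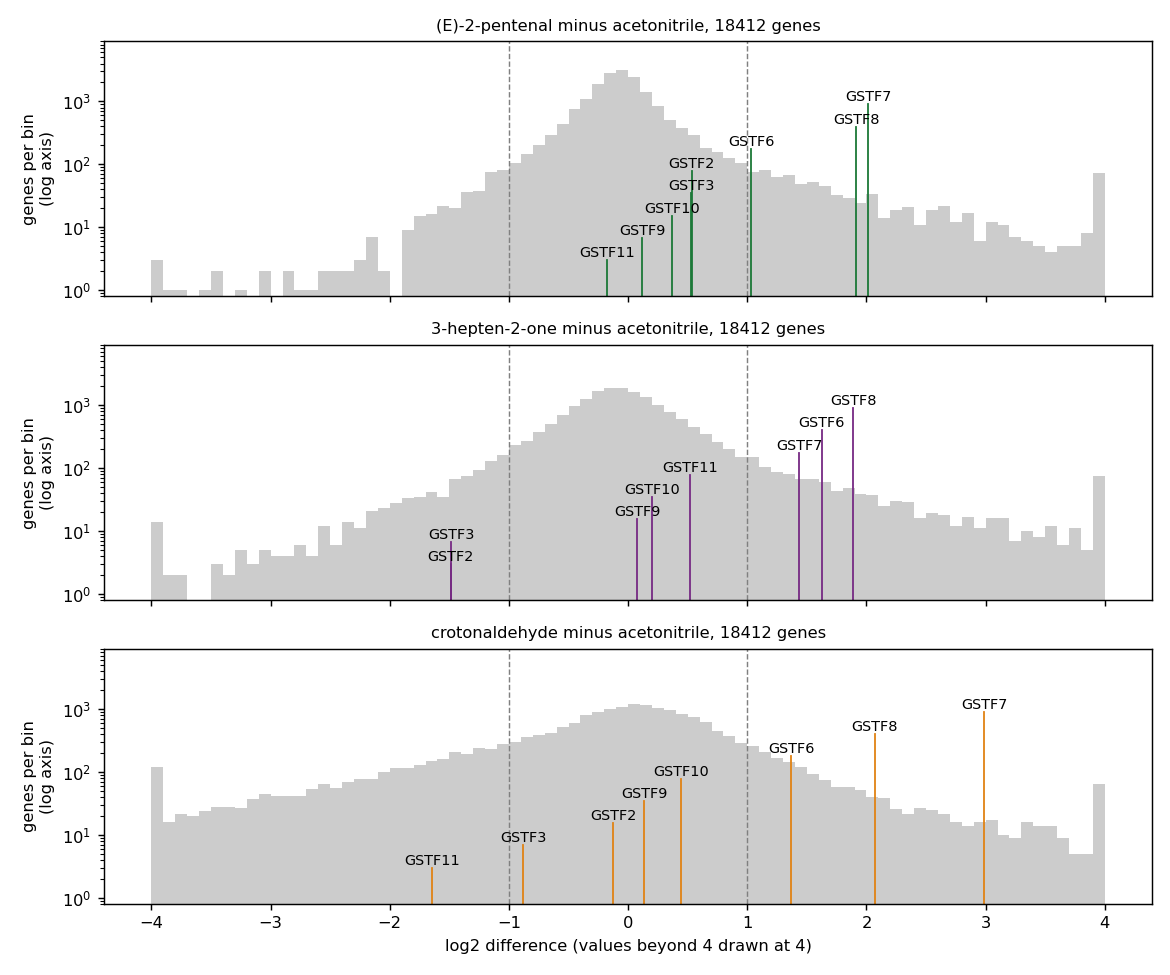
Log2 differences from the acetonitrile array of the 18412 genes compared, as histograms in bins of 0.1 with a logarithmic count axis, 1 panel for each volatile. Coloured lines mark the 8 phi class genes, their heights only separate the names, and dashed lines mark 2-fold. GSTF6, GSTF7 and GSTF8 stand to the right of the upper line in each panel, and GSTF9 and GSTF10 near the middle.

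GSTF11 takes part in the synthesis of glucosinolates derived from methionine. Its level was 2.02 in the control, 1.79 after (E)-2-pentenal, 2.90 after 3-hepten-2-one and 0.647 after crotonaldehyde. The crotonaldehyde array was the low one, 3.12-fold under the control, and 1429 genes were lower still. GSTF11 had a single probe, so no other probe could check this. The 3-hepten-2-one array was the highest, at 1.43-fold above the control. Among 13 genes of glucosinolate synthesis, all compared, 1 was higher and 3 lower after crotonaldehyde, with a median log2 difference of -0.32. These counts were near the shares over all genes, 8.89% higher and 15.2% lower, so they show nothing particular to the list. MYB29 and MYB28, factors that activate the methionine-derived branch, were at -1.71 and -1.26, and CYP79F2, an enzyme of that branch, at -1.14, while SOT16, a sulphotransferase of the indole branch, was at 1.14. These were the list's members past 2-fold, and none of them stands for its branch. The list's other enzymes were between -0.52, for CYP79F1, and 0.64, for UGT74B1, with CYP83A1 at -0.43 and UGT74C1 at 0.23. MYB34 and MYB51, factors of the indole branch, were at -0.85 and -0.01 after crotonaldehyde. After (E)-2-pentenal the list had 1 higher, MYB51 at 2.00, and 1 lower, MYB34 at -1.66, both factors of the indole branch. The shares over all genes there were 4.5% higher and 1.87% lower. None of the 13 passed 2-fold after 3-hepten-2-one, where 6.12% of all genes were higher and 4.57% lower. The summed root markers were lowest on the same crotonaldehyde array that was low in GSTF11, at 0.111 against 18.0 in the control.

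GSTF12, also named TRANSPARENT TESTA 19, binds anthocyanins and is needed for their transfer to the vacuole. The brightest probe had signals of 2059 in the control, 2650 after (E)-2-pentenal, 4487 after the ketone and 8.63 after crotonaldehyde, and the last was not well above background. Set against the lowest signal well above background on that array, 10.6, the level was at least 123-fold lower after crotonaldehyde than in the control. The other probe, well above background on all 4 arrays, had signals of 645, 899, 1001 and 141 in that order. It put the crotonaldehyde array 2.88-fold under the control, so the probes shared a direction and differed widely in size. After 3-hepten-2-one the brightest probe was 2.37-fold higher than in the control and the other one 1.69-fold higher. After (E)-2-pentenal they were 1.41-fold and 1.53-fold higher.

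Genes of flavonoid and anthocyanin synthesis, listed as the pathway that GSTF12 serves, had values for 7 of 11 listed members. All 7 were highest on the 3-hepten-2-one array and lowest on the crotonaldehyde array, as GSTF12 was. After 3-hepten-2-one 6 of the 7 were higher and 0 lower, with a median log2 difference of 1.22, where 6.12% of all genes were higher. After crotonaldehyde 0 were higher and 5 lower, with a median of -1.48, where 15.2% of all genes were lower, and after (E)-2-pentenal none of the 7 passed 2-fold, with a median of 0.11. F3H, which makes dihydroflavonols, was at 1.89 after 3-hepten-2-one and -2.50 after crotonaldehyde. CHS, the first enzyme of the pathway, was at 1.67 and -2.31 and the anthocyanin glucosyltransferase UGT75C1 at 1.33 and -2.76. A further 3 genes were well above background on all but the crotonaldehyde array: DFR, which reduces dihydroflavonols, was at least 124-fold lower there than in the control, the glycosyltransferase UF3GT at least 83.8-fold and the anthocyanidin synthase LDOX at least 13.7-fold. Each of these 3 had a single probe. The remaining gene, PAP2, was not well above background on any array. The summed root markers were also highest on the 3-hepten-2-one array, at 31.6, and lowest on the crotonaldehyde array, at 0.111. The high sum after 3-hepten-2-one came from PYK10, at a log2 difference of 0.82, while the root markers CASP2 and CASP1 were at -0.07 and -1.08. After crotonaldehyde PYK10 was at -8.30 and CASP2 at -1.36, and CASP1 was at least 3.9-fold lower. The part of the root markers in the values of GSTF12 and of these genes was not tested.

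**Figure D4:**
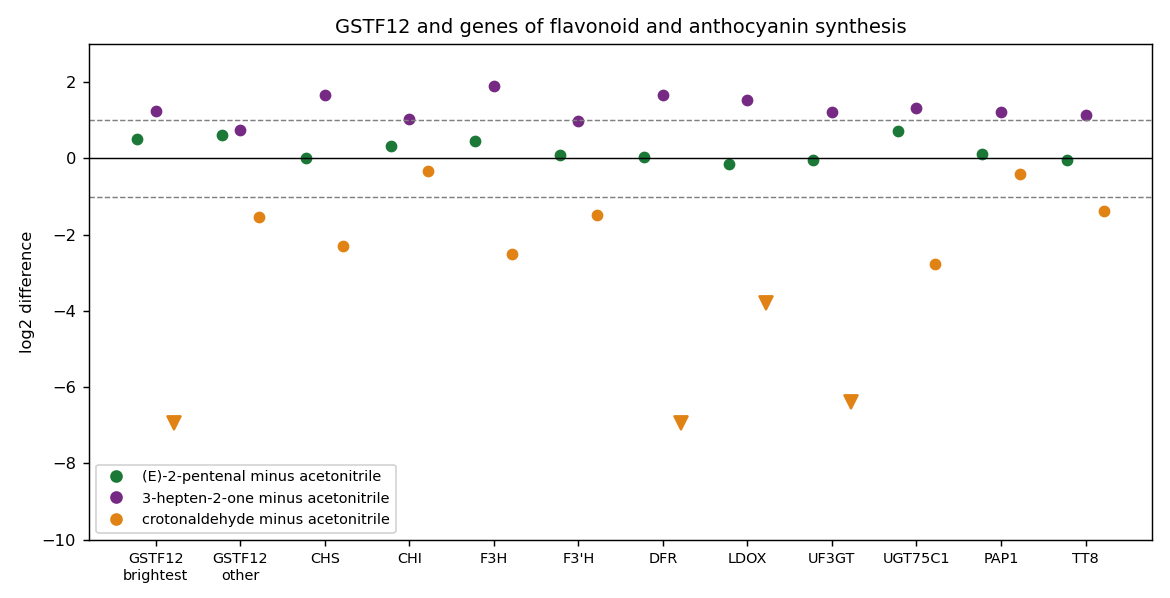
Log2 differences from the acetonitrile array for both probes of GSTF12 and for 10 genes of flavonoid and anthocyanin synthesis, 1 point for each volatile. Triangles are bounds for probes not well above background on the crotonaldehyde array, and dashed lines mark 2-fold. Every crotonaldehyde value lies below 0 and every 3-hepten-2-one value above 0.

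The volatiles were then set against each other at the same nominal dose and time, in 3 pairs. No test was possible for any pair, so each difference is given with the scanner software's error alone. On the shared slide the ketone 3-hepten-2-one and the aldehyde (E)-2-pentenal differed by at least 2-fold in 2 of the 8 genes, both lower after the ketone, where 4.21% of all genes were lower and 3.86% higher. These were GSTF2 at -2.02 ± 0.20 and GSTF3 at -2.01 ± 0.20 on the log2 scale, or 4.07-fold and 4.04-fold. Only 168 and 175 genes were lower in this comparison. GSTF11 and GSTF6 were higher after the ketone by 0.69 and 0.59, under the rule. GSTF8, at -0.02 ± 0.20, and GSTF9, at -0.05 ± 0.20, lay within the scanner error.

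The 2 aldehydes differ by 1 carbon in the chain. After (E)-2-pentenal 2 of the 8 genes were at least 2-fold higher than after crotonaldehyde and 0 lower, where 13.6% and 5.56% of all genes were. The 2 were GSTF11 at 1.47 ± 0.20 and GSTF3 at 1.41 ± 0.20. GSTF7 was close to the rule on the other side, at -0.98 ± 0.20, and passed it under 3 of the other scalings. GSTF12 was at least 173-fold higher after (E)-2-pentenal by its brightest probe and 4.40-fold by the other. GSTF8, GSTF9 and GSTF10 lay within the scanner error, at -0.16, -0.01 and -0.07. Over all genes 2510 were higher and 1023 lower, but 1852 and 1991 with each array scaled to its median.

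Between the ketone and crotonaldehyde 1 of the 8 genes was higher after the ketone and 2 were lower, where 15.8% and 9.72% of all genes were. GSTF11 was higher by 2.16 ± 0.20, or 4.47-fold, which was its widest difference between any 2 arrays. GSTF7 was at -1.55 and GSTF2 at -1.36 on the log2 scale. The 4 probes of GSTF2 ranged from -1.36 to -0.84 in this pair, so not all of them passed 2-fold. GSTF12 was at least 291-fold higher after the ketone by its brightest probe and 4.86-fold by the other. Over all genes 2903 were higher and 1790 lower, but 2197 and 3137 with median scaling. GSTF9 was again within the scanner error, at -0.06.

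**Figure D5:**
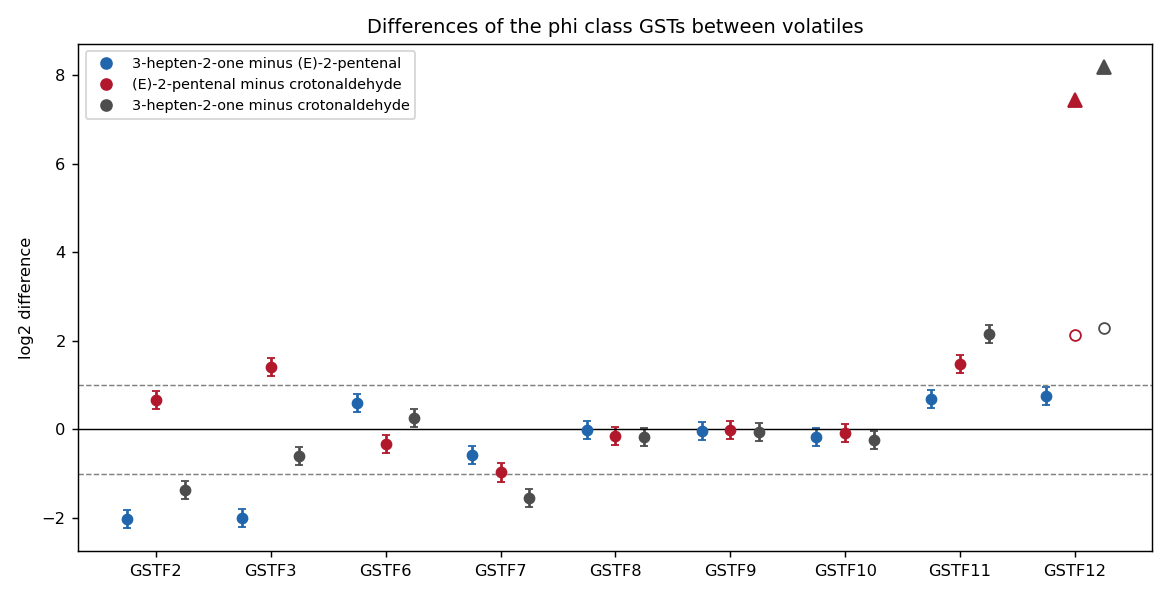
Log2 differences of the 9 genes between each pair of volatiles, by the brightest probe, with bars for the scanner software's error and dashed lines at 2-fold. Triangles are bounds for GSTF12 and open circles its other probe. GSTF8, GSTF9 and GSTF10 lie near 0 in all 3 pairs, while GSTF2 and GSTF3 lie at -2.02 and -2.01 in the ketone minus (E)-2-pentenal pair.

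The phi class genes outside the 9 were GSTF4, GSTF5, GSTF13 and GSTF14. GSTF13, near background in the control at 21.9 units, was 2.65-fold higher after crotonaldehyde, and GSTF14 was not well above background after crotonaldehyde. Of 28 tau class genes, the larger class of plant glutathione S-transferases, 20 were compared. They had 7 higher and 1 lower after (E)-2-pentenal, 10 and 0 after the ketone and 7 and 3 after crotonaldehyde, with medians of 0.31, 1.19 and -0.09. Beside these counts, 4.5% of all genes were higher and 1.87% lower after (E)-2-pentenal, 6.12% and 4.57% after the ketone, and 8.89% and 15.2% after crotonaldehyde, so the share of tau genes lower after crotonaldehyde was near that of all genes. After all 3 volatiles 6 of the 20 tau genes were higher, as were 3 of the 8 phi class genes. The share of all genes higher after all 3 was not counted, but cannot exceed the 4.5% higher after (E)-2-pentenal. Among the 20 tau genes compared, the greatest differences after the ketone were 4.74, 3.99, 3.92 and 3.50. They were those of GSTU24, GSTU7, GSTU1 and GSTU11, all among the 6. A further 4 tau genes, dim in the control and so not compared, were higher after the ketone by bounds. Of these GSTU25 was at least 33.9-fold and GSTU2 at least 20.2-fold higher. Among 10 compared genes of the other classes, DHAR2, a dehydroascorbate reductase, was higher after each volatile, at 2.93, 3.02 and 2.97, and GSTL2 was higher after crotonaldehyde alone, at 1.26. The counts were thus 1, 1 and 2 higher and 0 lower, with medians of 0.02, -0.19 and 0.34. These counts are too small to set the list apart from the shares over all genes given above.

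Of 10 compared genes that make, reduce or handle glutathione and its conjugates, 1 was higher after (E)-2-pentenal, 2 after the ketone and 1 after crotonaldehyde, with 0 lower. Of all genes 4.5% were higher and 1.87% lower after (E)-2-pentenal, and 6.12% and 4.57% after the ketone. After crotonaldehyde the shares were 8.89% and 15.2%, and the list's higher count was near the first of these. ABCC2, a vacuolar transporter of glutathione conjugates, was the gene higher each time, at 1.51, 1.93 and 1.63. GGP1, a peptidase that acts on glutathione conjugates in camalexin and glucosinolate synthesis, was at 1.28 after 3-hepten-2-one. GSH1 and GSH2, the enzymes of glutathione synthesis, stayed between -0.37 and 0.41. In the camalexin list, set beside GSTF6, 3 of 5 genes were compared and 1 passed, PAD3, the last enzyme, at 1.07 after (E)-2-pentenal. Of all genes 4.5% were higher after that volatile. CYP79B2 and CYP79B3, which start the indole route, were at -0.54 and -0.67 there, and the list's median was -0.54. After the ketone CYP71A13, dim in the control, was higher by a factor of at least 2.17. Of 6 reference genes 0 passed 2-fold after any volatile, with medians of -0.06, 0.01 and 0.04. With 6 genes that 0 is weak evidence of steady levels, given the shares over all genes above. UBQ10 was at 0.63, 0.84 and 0.90, while the other reference genes lay between -0.21 and 0.30.

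Likeness of pattern was measured as the Euclidean distance between the 3 log2 differences from the control, over all genes compared. The nearest to GSTF7 were AT2G30020 at 0.22, NUDT4 (AT1G18300) at 0.40 and AT1G29620 at 0.42. The nearest to GSTF11 were MIF3 (AT1G18835) at 0.07, AT5G39080 at 0.08 and EDA18 (AT2G34920) at 0.11. Among the 8 phi class genes the nearest pairs were GSTF9 with GSTF10, at 0.42, and GSTF2 with GSTF3, at 0.75, while the neighbours GSTF6 and GSTF7 were 1.90 apart.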

How the data were processed

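Each sample's total RNA, carrying Cy3, was hybridised to its own array, per the labels' protocols. The deposited scanner files hold spot intensity, background-subtracted within the array per the file headers, which give the scanner software, Feature Extraction, as version 10.10.1.1. The version in the submitters' processing notes is 9.1. The authors' value table holds the same deposited intensity times 1 constant per array. The deposited files also give each spot's error and its flags, coded 0 or 1.

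Spots were matched to loci by RefSeq transcript through a gene table of TAIR10.1, used for names and gene order only, since the array annotation names TAIR10: 34476 of 43803 spots matched. Log2 signals were centred on each array's 75th percentile, outlier spots left out, and a gene took its brightest probe. A gene entered the comparisons only where that probe was well above background on every array. Samples were grouped by title. Folds for dim probes are bounds. The number of arrays limits the precision. Alternatives used limma 3.58.1 in R 4.3.3 (normexp with offset 50, quantile, cyclic loess) and Python 3.11.15.

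All 9 members were named, and of each other list at most 4 genes past 2-fold. Also named, after their values were seen, were GSTF4, GSTF5, GSTF13, GSTF14, CYP79F2, SOT16, DFR, UF3GT, LDOX, PAP2, CYP71A13, CYP79B2, CYP79B3, AP1, AP3, AG, GSH1, GSH2, PYK10, CASP1, CASP2, EXPA7 and XTH14. So were GSTU2, GSTU25, CYP79F1, CYP83A1, UGT74B1, UGT74C1 and UBQ10. The members and lists were chosen with earlier results of these data known.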

Additional observations from a re-analysis of the deposited data

How the results depend on the processing

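The 12 counts of members past the rule were recomputed under 10 alternatives each, and 103 of 120 values stayed within 1.5 times. That share is weak support. The settings that changed only the filter could move a count through GSTF12 alone. A count of 2 in place of 3 also stayed within 1.5 times. After (E)-2-pentenal this hid the loss of GSTF6 under quantile normalization, the authors' scaled values and the mean over probes. With a 4-fold rule the higher count after (E)-2-pentenal was 1, and it was 0 for higher and 0 for lower after 3-hepten-2-one, 0 for lower after crotonaldehyde, 0 for higher in (E)-2-pentenal against crotonaldehyde and 0 for lower in 3-hepten-2-one against crotonaldehyde. With a 1.5-fold rule 2 were lower after crotonaldehyde, 2 higher after 3-hepten-2-one than after (E)-2-pentenal, and 1 lower after (E)-2-pentenal than after crotonaldehyde. The lower count after crotonaldehyde was 2 with the authors' scaled values (GSTF3 added), and 2 without a filter on dim probes and as the mean over a gene's probes (GSTF12 added, by construction). The same 2 settings gave 2 higher for 3-hepten-2-one against crotonaldehyde. Quantile normalization, median scaling and cyclic loess each gave 1 lower for (E)-2-pentenal against crotonaldehyde, GSTF7.

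Of 48 differences of the 8 members, 19 passed 2-fold and 0 of these changed sign under the 8 settings tried on them. That 0 is weak support, since such a change would need a shift of more than 2-fold. The settings that changed only the filter left these values as they were. The mean over probes cannot move the 4 genes with 1 probe. Of the 29 under 2-fold, 8 changed sign under at least 1. Median scaling moved the median of all genes by 0.32 after crotonaldehyde, and the authors' scaled values moved it by -0.15 there and by -0.12 after 3-hepten-2-one. The mean over both probes of GSTF12 was -4.38 after crotonaldehyde, against -1.53 for its other probe alone, a setting added after seeing the data. The cause of the difference between the probes was not tested. No paired analysis was possible because each group had 1 array. Signal over background limits GSTF5, GSTF13 and GSTF14, and the control value of GSTF7.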
